A study of Mus musculus with 4 samples.

Results

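The collagen and laminin chain genes were described in flow-sorted cells of the newborn mouse retina. The cells were labelled wild type or conditional knockout (cKO) for the zinc finger factor Casz1. The genes were taken by symbol: every row of the deposited table named Col with a type and an alpha chain number, or Lama, Lamb or Lamc with a number. Col11a1 was left out by the rule. This gave 54 of 22690 genes, 43 collagen and 11 laminin chains.

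Collagens are secreted trimers of alpha chains wound into a triple helix. Collagen IV forms the network of basement membranes, collagens II, V and XI form fibrils, and collagens such as IX sit on the surface of fibrils. Laminins are cross-shaped trimers of an alpha, a beta and a gamma chain that polymerize into the first sheet of a basement membrane and bind integrins and dystroglycan on cells. In the eye they build the inner limiting membrane between retina and vitreous, the membranes around blood vessels and the membrane under the pigment epithelium, and collagens II, IX and XI make up the vitreous fibrils.

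The cells were flow-sorted from C57BL/6 retinas of postnatal day 2 for a 4N DNA content, that of cells that have copied their genome and not yet divided. The groups were GFP-negative cells labelled wild type and GFP-positive cells labelled Casz1 cKO, with 2 libraries each, so the sorted fraction differs together with the genotype. All cells were held for a short time in serum-free medium before RNA extraction. The design names independent experiments, but the animals per library, the carrier of GFP and the promoter behind the knockout were not given in the sources used here, so p-values measure the spread between these libraries only. Libraries are named A or B after a tag in their column name, and each tag occurs on 1 library of either group.

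Reads in genes numbered 22326119 in cKO library A and 75832360 to 89473701 in the other libraries. cKO library A stood apart: across tested genes its Pearson correlation with the others was 0.902 to 0.918, against 0.988 to 0.993 among the others, and 40.5% of genes were at 0 in it against 25.5 to 27.2%. One read was worth 2.79 normalized counts there and 0.661 to 0.759 elsewhere, and a count of 0 allows up to 8.38 normalized counts there (3 reads, counting error only). Casz1 itself had 13162 and 11995 normalized counts in wild-type libraries A and B, against 8687 and 10772 in cKO libraries A and B, a log2 fold change of −0.38 (limma, adjusted p = 0.771). Its reads can come from exons outside the deleted part, so the loss of Casz1 rests on the label here. Of the markers of the labelled tissue, all 13 of retinal progenitors and all 10 of rods were above 0 in all 4 libraries. Markers of ganglion and amacrine cells and of microglia were read as well. The level of a gene therefore cannot be assigned to a cell type here.

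Several of the genes lie next to each other. Col4a1 and Col4a2 lie head to head on chromosome 8 and their annotated exons overlap by 22 bases, Col4a4 and Col4a3 lie head to head on chromosome 1 with 71 bases between them, and Col4a6 and Col4a5 lie head to head on chromosome X with 1308 bases between them. Promoter windows of 250 bases before to 50 after a start were taken from RefSeq (GRCm38.p6), which held 43 windows for 39 of the 54 genes. Capitals mark matches to the motifs searched, on both strands, and a match on the other strand appears as its reverse complement. The GC box, GGGCGG, was found in 58.1% of these windows and in 35.7% of all 32851 windows. The CCAAT box, CCAAT, was found in 30.2% and 37.4%. The TATA box, TATAAA, was found in 11.6% and 13.6%. A motif bound by SOX factors, ACAATG, was found in 2.33% and 12.6%. A window counts once for each motif, and matches of the motifs may overlap. These shares are descriptions, and the median GC content was 59.3% in these windows against 52.7% in all. The collagen IV pairs with a window for both genes are shown because the 2 genes of a pair start side by side. They are Col4a1 (chr8:11312777-11313076, minus strand), Col4a2 (chr8:11312555-11312854, plus strand), Col4a6 (chrX:141474027-141474326, minus strand) and Col4a5 (chrX:141475169-141475468, plus strand). Col4a3 had no window, and its pair with Col4a4 is not shown. Each window is printed 5′ to 3′ on its own strand.
Col4a1: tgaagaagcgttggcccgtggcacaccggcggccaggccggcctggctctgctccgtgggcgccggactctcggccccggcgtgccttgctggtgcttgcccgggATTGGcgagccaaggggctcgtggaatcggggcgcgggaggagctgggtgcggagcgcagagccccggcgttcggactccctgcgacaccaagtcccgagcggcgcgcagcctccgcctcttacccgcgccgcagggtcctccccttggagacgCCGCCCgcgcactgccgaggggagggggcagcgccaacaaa
Col4a2: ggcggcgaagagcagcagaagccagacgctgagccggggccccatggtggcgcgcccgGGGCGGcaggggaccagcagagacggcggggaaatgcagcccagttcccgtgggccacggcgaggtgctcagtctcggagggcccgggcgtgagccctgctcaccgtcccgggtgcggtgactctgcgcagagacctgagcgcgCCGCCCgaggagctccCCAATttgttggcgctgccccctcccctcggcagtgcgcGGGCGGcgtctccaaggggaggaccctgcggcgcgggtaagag
Col4a6: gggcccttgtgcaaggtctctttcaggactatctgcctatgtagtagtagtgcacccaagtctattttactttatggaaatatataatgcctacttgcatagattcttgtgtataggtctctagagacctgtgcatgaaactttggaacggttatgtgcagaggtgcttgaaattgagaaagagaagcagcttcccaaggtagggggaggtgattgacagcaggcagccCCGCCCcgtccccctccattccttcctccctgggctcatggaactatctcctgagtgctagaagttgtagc
Col4a5: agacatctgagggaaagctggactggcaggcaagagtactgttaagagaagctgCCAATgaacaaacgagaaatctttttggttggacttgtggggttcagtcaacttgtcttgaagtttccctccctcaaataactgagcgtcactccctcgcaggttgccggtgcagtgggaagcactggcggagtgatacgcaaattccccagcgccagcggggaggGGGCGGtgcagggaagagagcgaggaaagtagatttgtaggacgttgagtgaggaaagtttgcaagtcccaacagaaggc

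Col9a1 is shown because it had the highest level among the genes whose cKO libraries both lay above wild type, and it has 2 annotated starts, at chr1:24177360-24177659 and chr1:24194953-24195252 on the plus strand. Counts per gene do not tell which start the reads came from. Col17a1 (chr19:47691993-47692292, minus strand) is shown because it was lower in both cKO libraries at a level well above the floor, and its window holds 2 matches to the TATA box.
Col9a1 first start: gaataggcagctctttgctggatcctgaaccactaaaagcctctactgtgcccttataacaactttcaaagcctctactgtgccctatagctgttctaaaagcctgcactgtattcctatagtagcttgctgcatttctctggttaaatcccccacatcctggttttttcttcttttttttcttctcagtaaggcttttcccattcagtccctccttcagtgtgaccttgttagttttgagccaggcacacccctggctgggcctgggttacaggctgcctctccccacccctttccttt
Col9a1 second start: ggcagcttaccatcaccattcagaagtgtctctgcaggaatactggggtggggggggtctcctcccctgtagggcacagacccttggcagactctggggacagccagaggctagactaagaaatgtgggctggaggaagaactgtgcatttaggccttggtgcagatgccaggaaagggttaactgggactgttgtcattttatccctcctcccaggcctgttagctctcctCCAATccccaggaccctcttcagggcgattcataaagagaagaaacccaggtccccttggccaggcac
Col17a1: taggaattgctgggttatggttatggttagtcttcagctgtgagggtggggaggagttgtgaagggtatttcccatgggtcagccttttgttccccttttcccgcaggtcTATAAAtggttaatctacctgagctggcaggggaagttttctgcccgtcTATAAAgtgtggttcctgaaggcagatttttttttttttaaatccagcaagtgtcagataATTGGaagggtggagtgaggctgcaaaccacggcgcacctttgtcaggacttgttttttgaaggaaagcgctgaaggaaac

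No collagen or laminin gene passed the test between cKO and wild type. Genes with a mean of at least 10 normalized counts were tested with limma on log2(normalized count + 1), two-sided, with Benjamini-Hochberg adjustment over all 14480 such genes, and 46 of the 54 genes were among them. Fold changes are differences of group means on this log2 scale. The added 1 understates changes of low genes, while a single 0 or low value in a group gives a larger change than the ratio of the group means. Of the 46, 0 had an adjusted p under 0.05 (0.0% of all tested genes did), and the lowest adjusted p was 0.771. At an unadjusted limma p under 0.05 there was 1, Col5a3, against 1.89% of all tested genes. edgeR on the recovered reads also called 0 of the 46 (0.0% of all genes), with 1 at an unadjusted p under 0.05, Col9a1 (1.44% of all genes). DESeq2 called 0 of the 46 (0.0114% of all genes), with 2 at an unadjusted p under 0.05, Col5a3 and Col9a1 (2.27% of all genes). In the authors' deposited table the lowest adjusted p-value among these genes was 0.486, for Col5a3, so 0 were under 0.05 there, against 0.292% of all genes.

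By direction alone 18 of the 46 were higher and 28 lower in cKO, or 39.1% higher against 46.7% of all tested genes, and their median log2 fold change was −0.04 against −0.03. With each library rescaled to its median the split was 23 higher and 23 lower. The groups did not overlap for 19 of the 46, against 39.5% of all tested genes. Of these, 6 were higher (17.2% of all tested genes) and 13 lower (22.3%). Within tags, the median log2 ratio of cKO to wild type was −0.21 for tag A and 0.03 for tag B, against −0.05 and 0.00 over all tested genes. The direction was the same at both tags for 32 of the 46 (69.6%), against 69.3% of all tested genes. Both shares lay near those of all genes.

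**Figure D1:**
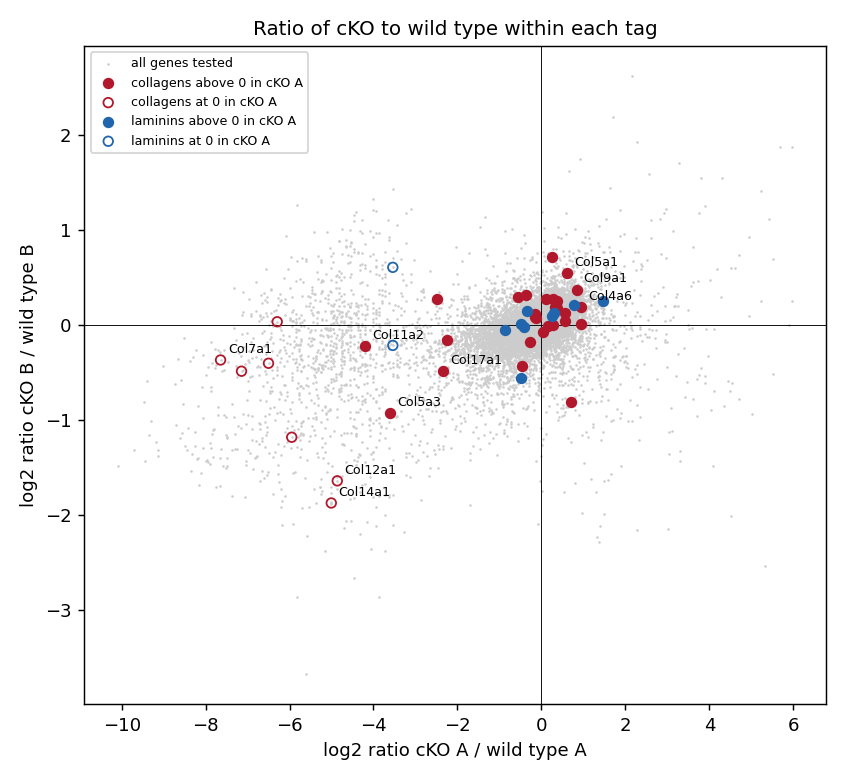
Log2 ratio of cKO to wild type at tag A (x axis) and at tag B (y axis), on log2(normalized count + 1), for all tested genes (grey), collagens (red) and laminins (blue); open circles are genes at 0 in cKO library A. At tag B 37 of the 46 (80.4%) lie within 0.5 of 0, against 91.2% of all tested genes, and at tag A 21 (45.7%), against 55.2%.

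Low-level genes of both families were at 0 in cKO library A. Of the 46 tested genes 9 (19.6%) were at 0 there, 7 collagens and 2 laminins, against 7.42% of all tested genes. In any other library 0 of the 46 were at 0. Col7a1 was the highest of the 9, and the lowest of its other libraries, 164 normalized counts, would correspond to 58.7 reads in cKO library A. Such zeros were more frequent at lower levels. Of the 973 genes with 10 to 30 normalized counts in the other 3 libraries, 69.7% were at 0 in cKO library A. The share was 36.8% at 30 to 100, 9.06% at 100 to 300 and 1.04% at 300 to 1000. Of the collagen and laminin genes in these bands, 4 of 7, 3 of 7, 2 of 9 and 0 of 7 were at 0. Their values at tag A are therefore given beside those at tag B throughout.

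**Figure D2:**
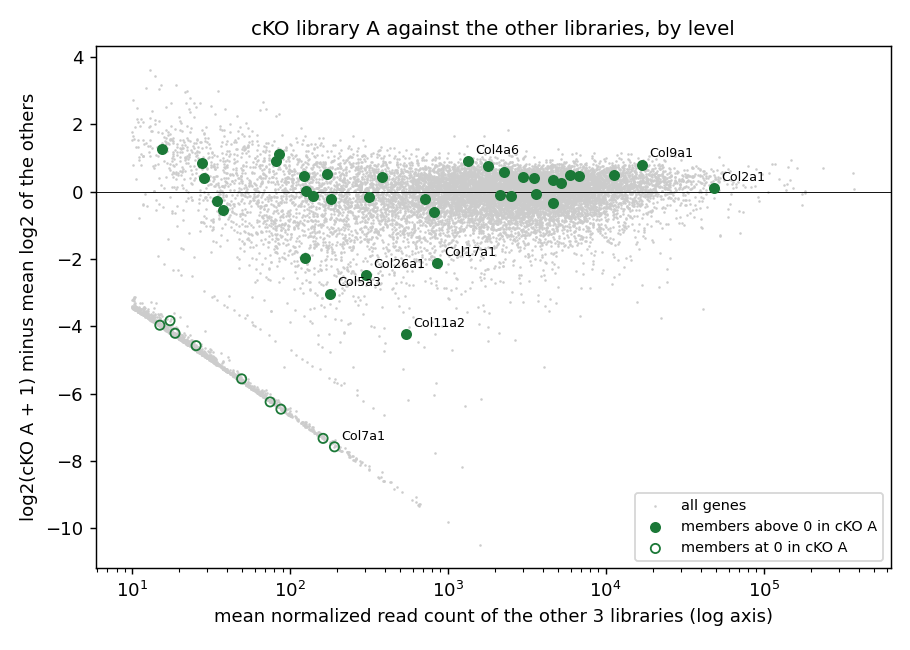
Log2(normalized count + 1) in cKO library A minus the mean of the other 3 libraries (y axis) against the mean normalized count of those libraries (x axis, log scale), for all genes with a mean of at least 10 there (grey) and the collagen and laminin genes (green). The lower diagonal is made of genes at 0 in cKO library A, 9 collagen and laminin genes among them, all below 300 on the x axis.

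Split at a mean of 1000 normalized counts, a value chosen after the data were seen, the 16 higher-level genes had a median above 0 and the 30 lower-level ones a median below 0; this contrast was not tested. Among the 16, 11 (68.8%) were higher in cKO and the median was 0.19 on the log2 scale, against 54.0% and 0.03 over all genes of that level. At tag A 12 of the 16 (75.0%) were higher, with a median of 0.29, against 53.8% and 0.05 over all genes of that level. At tag B 13 of the 16 (81.25%) were higher, with a median of 0.12, against 54.0% and 0.01. Among the 30, 7 (23.3%) were higher and 23 lower, with a median of −0.49. Over all genes of that level 35.2% were higher and the median was −0.24. At tag A the 30 had a median of −0.70 and all genes of that level −0.41. At tag B the 30 had a median of −0.11 and all genes of that level −0.06.

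Col2a1 and Col9a1, chains of the vitreous fibril core and of its surface partner, had the highest levels per kb of exon. Col2a1, the chain of collagen II, had 51109 and 48772 normalized counts in wild-type libraries A and B, against 52279 and 46169 in cKO libraries A and B. The groups overlapped, with a difference of −0.02 on the log2 scale (standard error 0.19, limma adjusted p = 0.967). Its level per kb was 5403 ± 179 (SD, n = 2) for wild type and 5326 ± 467 (SD, n = 2) for cKO. This was 22.8 to 28.9% of the summed level per kb of all 54 genes in a library.

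Col9a1, the alpha 1 chain of collagen IX, had the smallest p among the higher genes. It had 16390 and 14950 normalized counts in wild-type libraries A and B, against 29265 and 19307 in cKO libraries A and B. Both cKO libraries were above both wild-type libraries, with means of 15670 ± 1018 (SD, n = 2) and 24286 ± 7041 (SD, n = 2). Its log2 fold change of 0.60 (standard error 0.25) did not pass (limma, adjusted p = 0.771), and the ratios were 0.84 at tag A, 0.37 at tag B. Without cKO library A it was 0.30.

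The partner chains of the collagen IX trimer had smaller differences. Col9a2 had 2294 and 2226 in wild-type libraries A and B, against 3378 and 2279 in cKO libraries A and B. Col9a3 had 6878 and 5545, and 8379 and 5537, so the groups overlapped, and part of its exons lies over those of Tcfl5 on the other strand (234 bases). Their log2 fold changes were 0.30 and 0.14, with standard errors of 0.24 and 0.26. A ratio of chains within a library does not depend on library scaling, but it can depend on level. Over all genes, the median log2 difference of cKO library A from the others was −0.39 at 100 to 300 normalized counts. That median was −0.02 at 1000 to 3000 and 0.17 above 10000, and its part in the ratios was not tested. Col9a1 per kb was 1.81 and 2.05 times Col9a3 in wild-type libraries A and B, against 2.66 and 2.65 times in cKO libraries A and B. Against Col9a2 the ratios were 4.36 and 4.10, and 5.29 and 5.17. Both ratios were higher in both cKO libraries, with an exact two-sided permutation p = 0.333 each, the smallest that 2 against 2 libraries allow. That value follows from the lack of overlap and adds nothing to it. These were 2 of 11 chain ratios computed, of which 7 had groups that did not overlap. The 7 include Col4a3 to Col4a4, with Col4a3 at 0 in cKO library A, and Col4a5 to Col4a6. The latter was 2.473 in wild-type library B and 2.472 in cKO library B. Col9a1 enters 2 of the 7, and no share over other gene pairs was computed.

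Marker sums of progenitors were higher in both cKO libraries, and those of Mueller glia only in cKO library A. The 13 progenitor markers summed to 484834 to 497594 normalized counts in wild type and 536582 to 681990 in cKO, 11 of 13 were higher and none was at 0. The 9 Mueller glia markers summed to 165223 to 193188 in wild type, and to 283953 and 178020 in cKO libraries A and B, of which the latter lies inside the wild-type range. Of the 8 tested, 5 were higher and 3 lower, and 1 of the 9 was at 0 in cKO library A. Their part in the Col9a1 values was not tested. In bulk RNA, fewer cells of a type and less RNA per cell cannot be told apart.

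The other fibrillar chains split. Col5a1, which sets the diameter of fibrils, had 1960 and 1395 in wild-type libraries A and B, against 3001 and 2027 in cKO libraries A and B. The cKO libraries lay above, by 0.58 on the log2 scale (standard error 0.29, limma adjusted p = 0.771), with 0.61 at tag A against 0.54 at tag B. The ratio at tag B was the highest of the genes with a mean of at least 1000, but cKO library B (2027) lay close to wild-type library A (1960). Col5a2, its usual partner, overlapped between groups, with means of 2477 ± 582 (SD, n = 2) and 2406 ± 210 (SD, n = 2).

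Col5a3 lay below wild type in both cKO libraries and had the lowest ratio of the tested fibrillar chains at tag B. It had 250 and 188 normalized counts in wild-type libraries A and B, against 19.6 and 98.5 in cKO libraries A and B, where 19.6 stands for 7 reads. The log2 fold change of −2.27 (standard error 0.84, limma adjusted p = 0.771) was made of −3.61 at tag A, −0.93 at tag B. Without cKO library A it was −1.13 (limma, adjusted p = 0.224).

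Col11a2, the alpha 2 chain of collagen XI, depended on 1 library. It had 531 and 595 in wild-type libraries A and B, against 27.9 and 509 in cKO libraries A and B, with 10 reads behind the 27.9. The log2 fold change was −2.21 with all libraries and −0.14 without cKO library A. It was −1.02 with edgeR and −1.05 with DESeq2. Col1a1 and Col1a2, the chains of the collagen I of connective tissue, were low: 80.1 to 187 and 129 to 143 over the 4 libraries. Col3a1, the collagen of vessel walls and loose connective tissue, had at most 7.59. Col27a1 and Col24a1 had 87.9 to 170 and 25.1 to 41.7, with overlapping groups. Connective tissue markers were near 0 as well: the 12 fibroblast and mesenchyme markers summed to 93.2 to 94.1 in wild type and 39.1 to 137 in cKO, and 11 of them, all but 1, were at 0 in cKO library A.

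**Figure D3:**
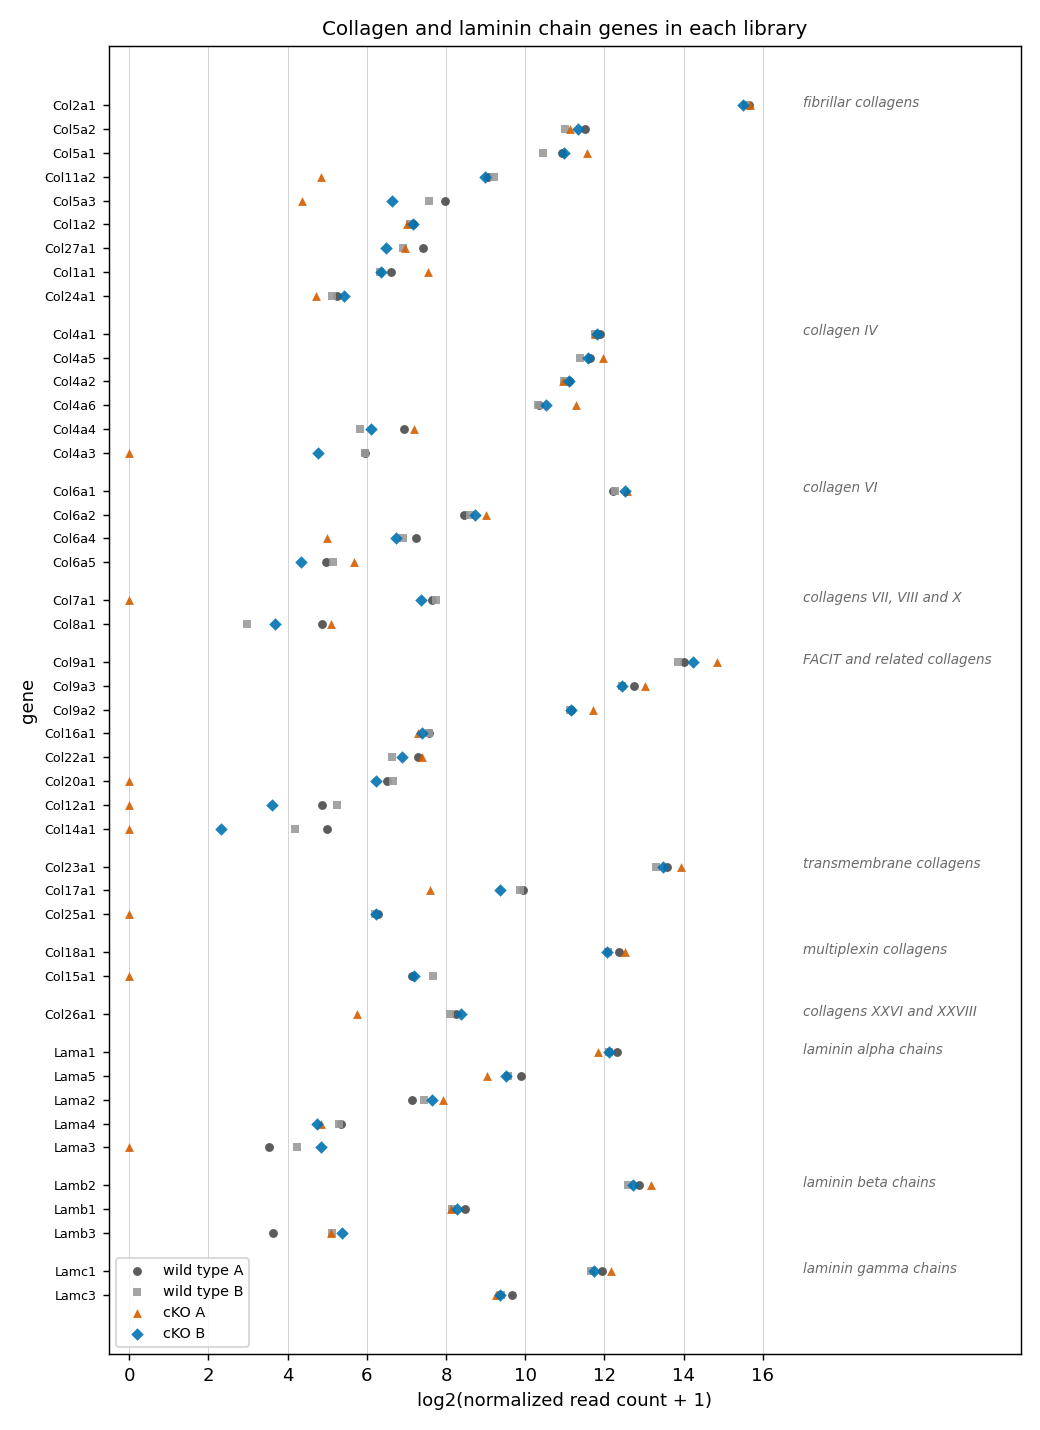
Log2(normalized read count + 1) (x axis) of the tested collagen and laminin genes (y axis; 1 gene is not shown) in each of the 4 libraries, grouped by structural class. Wild-type libraries A and B and cKO library B lie close together for most genes, and cKO library A is at 0 for several, Col7a1 and Col15a1 among them.

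The collagen IV chains that form the general basement membrane network overlapped between groups. Col4a1 had 3787 and 3440 in wild-type libraries A and B, against 3439 and 3611 in cKO libraries A and B. Col4a2 had 2209 and 2024, and 1995 and 2185. Both genes, which lie head to head, overlapped between groups, with log2 fold changes of −0.03 and −0.02 (limma, adjusted p = 0.945 and 0.975). The ratio of Col4a1 to Col4a2 per kb was 1.47 to 1.53 in all 4 libraries.

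The X-linked pair gave unequal values. Col4a6 had 1294 and 1287 normalized counts in wild-type libraries A and B, against 2501 and 1465 in cKO libraries A and B. Both cKO libraries were higher, by 0.57 on the log2 scale (standard error 0.30, limma adjusted p = 0.771). The ratio was 0.95 at tag A but 0.19 at tag B, and the difference was 0.18 without cKO library A. Col4a5 had 3202 and 2681, and 4023 and 3051, with overlapping groups and a log2 fold change of 0.26. The ratio of Col4a5 to Col4a6 per kb was 2.94 and 2.47 in wild type and 1.91 and 2.47 in cKO, so at tag B it was the same to 3 digits. Col4a3 and Col4a4, chains of the kidney-type network, were low. Col4a3 had 60.7 and 61.4 in wild-type libraries A and B, against 0 and 26.4 in cKO libraries A and B, and 563 bases of its exons overlap a transcript on the other strand. Without cKO library A its log2 fold change was −1.18 (limma, adjusted p = 0.701). Col4a4, which starts beside it, had 55.9 to 121 in wild type and 67.4 to 145 in cKO.

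**Figure D4:**
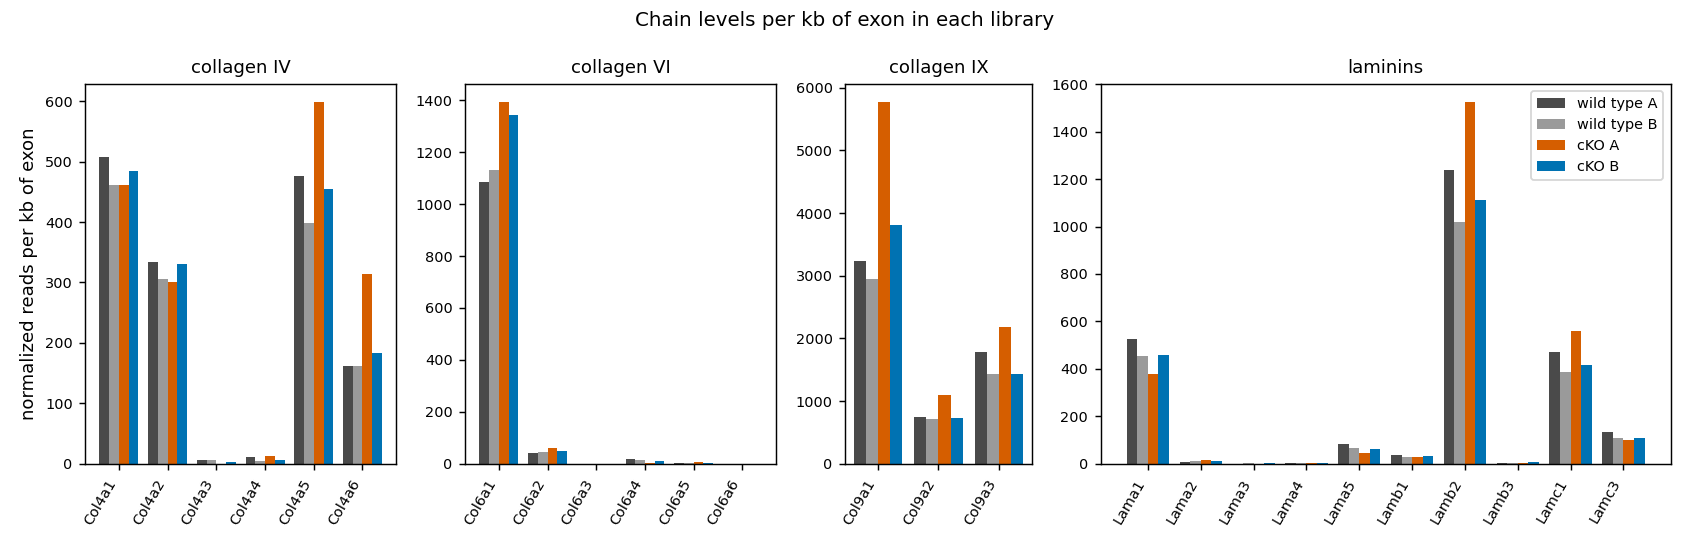
Normalized reads per kb of exon (y axes, each from 0) for chains of collagens IV, VI and IX and of the laminins (x axes; 1 laminin chain is not shown) in each of the 4 libraries. Col6a1 is far above the other collagen VI chains, and Lamb2, Lama1 and Lamc1 are the highest laminin chains of their kind.

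Collagen VI, which forms beaded filaments next to basement membranes, was present almost only as its alpha 1 transcript. Col6a1 had 4753 and 4952 in wild-type libraries A and B, against 6105 and 5873 in cKO libraries A and B. Both cKO libraries were higher, with means of 4852 ± 141 (SD, n = 2) and 5989 ± 164 (SD, n = 2), and the 2 tags gave log2 ratios of 0.36 and 0.25. The log2 fold change of 0.30 (standard error 0.17) did not pass (limma, adjusted p = 0.771) and was 0.28 without cKO library A. Col6a2, the neighbour on chromosome 10 and partner in the trimer, was also higher in both cKO libraries: 348 and 387 in wild-type libraries A and B, then 514 and 421 in cKO. Per kb Col6a1 was 22.6 to 26.5 times Col6a2 in a library. Col6a3, the chain that completes the usual trimer, was listed at 1.52 and 1.38 in wild type and at 0 and 2.64 in cKO, or 0 to 4 reads. Of the chains that can stand in for it, Col6a4 had 119 to 150 in wild type and 30.7 and 106 in cKO, and Col6a5 had 19.2 to 50.3 over the 4 libraries.

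Among transmembrane collagens, Col23a1 was abundant and Col17a1 was lower in both cKO libraries. Col23a1 had 12248 and 10092 in wild-type libraries A and B, against 15747 and 11391 in cKO libraries A and B, with overlapping groups and a log2 fold change of 0.27. Col17a1, the hemidesmosome collagen, had 981 and 927 in wild-type libraries A and B, against 193 and 661 in cKO libraries A and B, with 69 reads behind the 193. The groups did not overlap, with means of 954 ± 38.1 (SD, n = 2) and 427 ± 331 (SD, n = 2). Its log2 fold change of −1.41 (standard error 0.58, limma adjusted p = 0.771) was made of −2.34 at tag A, −0.49 at tag B. Without cKO library A it was −0.53 (limma, adjusted p = 0.882). Col25a1, a transmembrane collagen of neurons, was at 0 in cKO library A and at 73.2 to 77.4 in all others.

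Col7a1, Col15a1 and Col20a1 had large fold changes that came from a 0 in 1 library. Col7a1, the anchoring fibril collagen, had 199 and 213 in wild-type libraries A and B, against 0 and 164 in cKO libraries A and B. The log2 fold change of −4.01 (standard error 2.31) became −0.33 without cKO library A, and was −1.25 with edgeR and −1.32 with DESeq2. Col15a1, a basement membrane proteoglycan, had 140 and 203, and 0 and 144, and its log2 fold change of −3.82 became −0.23 without cKO library A, and was −1.18 with edgeR and −1.23 with DESeq2. Col20a1 had 89.6 and 99.4, and 0 and 74.7. Col18a1, the other multiplexin and the precursor of endostatin, had 4312 to 5895 in the 4 libraries, with a log2 fold change of 0.07 and overlapping groups. Col26a1 had 301 and 275, and 53.1 and 333, so its cKO libraries lay on both sides of wild type.

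The lowest ratios at tag B among all 46 belonged to Col14a1 and Col12a1, collagens with interrupted helices that sit on fibrils. Col14a1 had 31.1 and 17.3 in wild-type libraries A and B, against 0 and 3.97 in cKO libraries A and B, and Col12a1 had 28.1 and 37.3, and 0 and 11.2. Their log2 ratios at tag B were −1.88 and −1.64, at levels of 0 to 37.3 normalized counts. Without cKO library A the genes with an unadjusted limma p under 0.05 were Col14a1, Col5a3, Col12a1, Col4a3 and Col17a1, all lower, 5 of 46 against 4.98% of all genes tested in that fit, and 0 of the 46 passed after adjustment against 0.522% of all genes. In that fit 1 cKO library is left, whose spread is taken to be that of the wild-type libraries. Col16a1 and Col22a1 had 156 to 191 and 98.0 to 168 over the 4 libraries, with log2 fold changes of −0.23 and 0.19. Col8a1, a chain of vessel and corneal membranes, had 6.90 to 33.5, with overlapping groups.

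Marker sums of microglia, rods and retinal astrocytes were lower in both cKO libraries. Those of ganglion and amacrine cells were not, at 33808 to 40637 in wild type and 36202 to 36204 in cKO, with 7 of 13 higher. The 12 microglia markers were all lower, with sums of 25076 to 25810 in wild type and of 2473 and 11901 in cKO libraries A and B, and 1 at 0 in cKO library A. The 10 rod markers summed to 88592 to 100361 in wild type and 53106 to 59465 in cKO, with 9 of 10 lower and none at 0. All 6 retinal astrocyte markers were lower, with sums of 7552 to 9967 in wild type and 5102 to 5801 in cKO and 1 at 0 in cKO library A. Their part in the values of Col5a3, Col17a1, Col12a1 and Col14a1 was not tested.

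The laminin transcripts were mainly those of alpha 1, beta 2 and gamma 1 chains, and no laminin passed. Lama1, the alpha chain of embryonic basement membranes, had 5097 and 4399 in wild-type libraries A and B, against 3657 and 4425 in cKO libraries A and B. The groups overlapped, and the difference was −0.24 on the log2 scale (standard error 0.20, limma adjusted p = 0.771). Lamb2, the beta chain whose loss disturbs the inner limiting membrane, had 7528 and 6195, and 9279 and 6751, and was 96.7 to 97.9% of all beta chains per kb in a library. Lamc1, the common gamma chain, had 3908 and 3217, and 4621 and 3430, and was 77.5 to 84.8% of the gamma chains per kb. In both genes only cKO library A lay above wild type, and without it the log2 fold changes of 0.21 and 0.17 were −0.02 and −0.05.

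The second chains of each laminin kind were lower-level. Lama5, an alpha chain of mature basement membranes, had 953 and 761 in wild-type libraries A and B, against 525 and 729 in cKO libraries A and B. The groups did not overlap, but cKO library B (729) lay close to wild-type library B (761), and the log2 ratio was −0.86 at tag A against −0.06 at tag B. Lamc3, a retinal gamma chain, had 808 and 673, and 609 and 660, without overlap and with a log2 fold change of −0.22. Lamb1 had 356 and 281, and 279 and 309, and overlapped. Lama2, the alpha chain of muscle and nerve, was higher in both cKO libraries, with 141 and 174, and 243 and 201, a difference of 0.49 on the log2 scale (standard error 0.37, limma adjusted p = 0.771). An antisense transcript overlaps 631 bases of Lama2 exons, and the use of strand in counting was not given in the sources used here.

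The vessel laminin Lama4 had 39.5 and 38.7 in wild-type libraries A and B, against 27.9 and 25.8 in cKO libraries A and B, lower in both by similar ratios, −0.48 at tag A and −0.57 at tag B. The 27.9 stands for 10 reads, and the log2 fold change of −0.53 had a standard error of 0.86. The 14 endothelial markers summed to 39224 to 44194 in wild type and 40197 to 50234 in cKO, with Kdr the highest. The sum was highest in cKO library A, although 9 of the 14 were at 0 there, against 2 in each other library. Of the 9 tested, 4 were higher and 5 lower. The 10 mural cell markers summed to 2976 to 3734 and 3331 to 4199, with 5 at 0 in cKO library A. The part of vessel cells in the Lama4 values was not tested. Lama3 and Lamb3, chains of the epithelial laminin, stayed at 40.3 normalized counts or less in every library.

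The 8 genes under the level filter had means of 0.569 to 9.74 over the 4 libraries and were not tested, while the lowest tested gene had 11.3. They were Col10a1, Col6a3, Col6a6, Col3a1, Col19a1, Col28a1, Col8a2 and Col13a1, and 7 of the 8 were at 0 in cKO library A. Col13a1 had 3.80 and 5.52 in wild type and 22.4 and 7.27 in cKO, with 8 reads behind the 22.4.

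Genes that make, bind and remodel these chains also gave no call. Their list medians were −0.18 to 0.22, against −0.03 over all tested genes. Of 21 basement membrane partners 8 were higher and 13 lower, with a median log2 fold change of −0.18. Agrn, the heparan sulfate proteoglycan agrin, had −0.36 and Sparc, a collagen IV binding protein, 0.29. Of 21 tested collagen and laminin receptors 9 were higher and 12 lower, with a median of −0.03, at 0.11 for Ddr1, a collagen receptor kinase, and 0.34 for Dag1, dystroglycan. The 12 genes that glycosylate dystroglycan for laminin binding had a median of 0.05, with 8 higher, −0.50 for Pomt2 and −0.12 for Large.

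Enzymes of collagen synthesis had 8 of 20 higher and a median of −0.07, with 0.33 for P4hb, a subunit of prolyl hydroxylase, and 0.30 for Ppib, a helix-folding isomerase. Procollagen processing and crosslinking genes had 3 of 9 higher and a median of −0.14, with −0.09 for Bmp1, the C-proteinase, and 0.48 for Loxl2, a lysyl oxidase. Matrix proteases and inhibitors had 10 of 19 higher and a median of 0.11, with 0.26 for Adamts1 and 0.25 for Mmp14. Other matrix proteins had 12 of 23 higher and a median of 0.22, with 0.35 for Fn1, fibronectin, and 0.49 for Prelp. The median of this list was −0.08 at tag A, 0.07 at tag B and −0.03 without cKO library A. In these 7 lists 0 genes had an adjusted limma p under 0.05, the same as over all genes. The list medians were −0.31 to 0.15 at tag A and −0.10 to 0.11 at tag B.

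**Figure D5:**
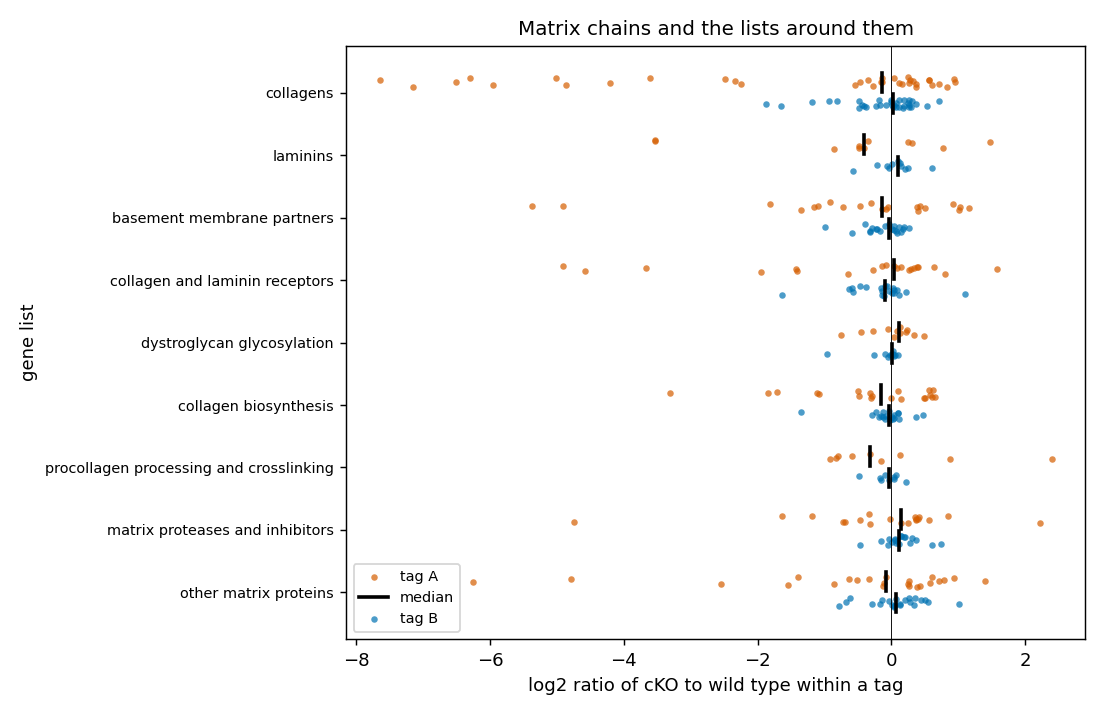
Log2 ratio of cKO to wild type (x axis) at tag A (orange) and tag B (blue) for each tested gene of the collagens, the laminins and 7 lists of genes around them (y axis), with the median of each as a black bar. Values at tag B lie mostly within 1 of 0, and those at tag A reach below −7 where cKO library A is at 0.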

How the data were processed

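RNA-seq of 4 sorted retinal libraries was used as 1 deposited table. The authors deposited normalized counts (a signal per gene): per the file headers these are normalized values, and the values show reads divided by a constant of each library. All (100%) were whole multiples of 1 read within 0.01 reads. The submitters' processing notes name FastQC, TopHat, HTSeq and DESeq with mm10; versions, settings, annotation and strand use were not given in the sources used here. The authors' p-values and adjusted p-values are in the deposited table. Because both cKO columns carry the replicate number 2, they were tied to their group and to no numbered sample.

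Collagen and laminin genes, lists and classes were chosen with earlier results of these data known. Genes with a mean of at least 10 were tested with limma 3.58.1 (R 4.3.3), with a mean-dependent prior, on log2(value + 1), and tested on simulated data. Named genes were the 2 highest per class and the 5 smallest p per direction with a mean of at least 50. Partner chains, and the genes at 0 or at low levels that are given beside them, were added after their values were seen. The values of 1 gene are not reported here, and it stays in the counts. Lengths are unions of exons of GENCODE M21 (GRCm38), retained introns included. edgeR 4.0.16 and DESeq2 1.42.0 used recovered reads. Other alternatives were pseudocounts of 0.5 and 5, other filters, median rescaling, no prior trend, a replicate block and leaving out each library.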

Additional observations from a re-analysis of the deposited data

How the results depend on the processing

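Of the 26 collagen and laminin genes named by the rule, 16 kept their direction in every alternative. With edgeR and DESeq2 the changes were over 1.5 times smaller for Col7a1 (−4.01 to −1.25 and −1.32), Col15a1 (−3.82 to −1.18 and −1.23), Col11a2 (−2.21 to −1.02 and −1.05) and Col26a1 (−1.11 to −0.54 and −0.56), and with edgeR also for Col2a1, near 0 in both. With median rescaling Col2a1, Col4a1 and Col5a2 changed sign, to 0.017, 0.0059 and 0.016 on the log2 scale. Leaving out each library in turn gave ranges that cross 0 for Col2a1 (−0.11 to 0.066), Col4a1 (−0.10 to 0.035), Col5a2 (−0.27 to 0.22), Col8a1 (−0.46 to 1.42), Col9a3 (−0.16 to 0.44), Col18a1 (−0.15 to 0.30), Col26a1 (−2.42 to 0.21), Lamb1 (−0.28 to 0.066), Lamb2 (−0.016 to 0.44) and Lamc1 (−0.048 to 0.38); the cause was not tested. The count of all genes called by limma was 0 in every fit with 4 libraries, 2 with DESeq2, and 0 to 5662 over left-out libraries. The count of collagen and laminin genes called ranged from 0 to 20 over left-out libraries, and the 20 (7 higher, 13 lower, 7 of the lower at 0 in cKO library A) came without cKO library B, when 39.2% of all genes were called and cKO library A stood alone. Their median log2 fold change ranged from −0.21 to 0.023 and the number higher from 15 to 24 over left-out libraries. No label ties a tag to an animal or experiment; deviations from the group means correlated at 0.258 across genes between libraries of 1 tag. In the fit with the replicate block 0 of the 46 passed, the median was −0.04, and 8 had an unadjusted p under 0.05, against 9.5% of all genes. Reads were fewest in cKO library A, and a 0 there allows up to 8.38 normalized counts by counting error only. For Col15a1, Col20a1 and Col25a1, all at 0 there, the lowest of the other libraries would correspond to 50.3, 26.7 and 26.2 reads. The cause of these zeros was not tested.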

Other observations

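Other chain ratios per kb did not overlap between groups either, and were chosen after their values were seen. Col5a1 was 0.766 and 0.763 times Col5a2 in wild-type libraries A and B, against 0.896 times in cKO library B, and it was higher still in cKO library A. Lama1 was 6.29 and 6.80 times Lama5 in wild type and 8.19 and 7.14 times in cKO. Lamc1 was 3.56 and 3.52 times Lamc3 in wild type and 5.59 and 3.83 times in cKO. Each had an exact two-sided permutation p = 0.333, the smallest possible with 2 libraries per group. This value follows from the lack of overlap and adds nothing to it. The shift of cKO library A with level, given above, was not taken out of these ratios. By contrast, Col6a1 to Col6a2 and Col4a1 to Col4a2 overlapped between the groups.

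Of 125 tested genes in the 7 lists around the chains 3 (2.40%) had an unadjusted limma p under 0.05, near the 1.89% of all tested genes. Each was lower in both cKO libraries, and none passed after adjustment (limma, adjusted p = 0.771 for each). Itga3, an integrin chain that binds laminins, had 1463 and 994 normalized counts in the wild-type libraries and 380 and 768 in the cKO libraries, a log2 fold change of −1.16. Pomt2, which starts the sugar chain of dystroglycan, had 5598 and 4729, then 3339 and 3961, a log2 fold change of −0.50. Npnt, an integrin ligand of basement membranes, had 1176 and 799, then 461 and 640, a log2 fold change of −0.83.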
